A study of Zea mays with 12 samples.

Results

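Transcript levels in the developing internode of maize (Zea mays) were compared between Sdw3, which the study's title calls a mutant, and N18, the other cultivar in the labels. The internode lay between leaf 7 and leaf 8, at the V7 stage, and each genotype had 3 libraries by the labels. The study also holds the developing ligular region of leaf 8 and leaf 9 of the same genotypes. It is used here to check tissue identity and to sort genes by where they are expressed. For 1 pair of neighbouring genes its values in both genotypes are given as well. The labels give neither the gene affected in Sdw3 nor the cross that links it to N18, so effects of the mutation and of other sequence differences between the lines cannot be told apart. The deposited internode table holds 1 combined FPKM per gene and genotype, a measure of fragments per length of transcript and per library. Neither the spread between libraries nor the read depth behind a level is known.

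A gene counted as expressed when the higher of its FPKM values in Sdw3 and N18 was at least 1, which held for 21128 of the 39514 genes in the table (53.5%). Of these, 20270 reached an FPKM of 1 in both genotypes, 496 in Sdw3 alone and 362 in N18 alone. The 215 genes with a higher value between 1 and 1.1 had a median log2((Sdw3 + 1)/(N18 + 1)) of 0.03, and the 230 genes between 0.9 and 1 a median of -0.02. The authors tested 21070 of the expressed genes. In the text a gene is called higher or lower where the authors' deposited table gives it an adjusted p under 0.05, and a fold is the ratio of the authors' FPKM values. By that rule 2386 expressed genes were called, 11.3% of those tested, with 1380 higher in Sdw3 (6.55%) and 1006 lower (4.77%). Another 3 genes called in the authors' deposited table lay below the expression limit, among them the kaurene synthase gene eks1 at 0.983 in Sdw3 and 0.147 in N18.

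An internode grows from dividing cells at its base, which then elongate and strengthen their walls. Gibberellin, brassinosteroid and auxin promote that growth in grasses, and knotted-type homeobox genes keep the young stem in an undifferentiated state. Growth-regulating factors (GRFs) and their GIF coactivators sustain cell proliferation in growing organs, SBP-box factors mark developmental phase and branching, and jasmonate generally restrains growth while it promotes defence.

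Most markers of the tissue matched the label. KN-1, a homeobox gene of the shoot meristem and young stem, was at 179.7 against 172 FPKM (Sdw3 against N18, the order used throughout) and was listed at 0 in both ligular samples. The ligule gene lg1, at 14.9 or more in both ligular samples, was at 0.183 against 0.125 in the internode. The second ligule gene, lg2, separated the tissues less, at 0.612 against 0.235 in the internode and 2.95 against 0.925 in the ligular region. Of the 4 green leaf markers, the C4 genes pep1 and ME1 were below 1 in both internode samples. The other leaf markers, cab-m1 and rbcS (GRMZM2G098520), were present there, lower in Sdw3 than in N18 as given below, and their part in other results was not tested. CesA12, a cellulose synthase gene of secondary walls, was at 4.30 against 4.29. Less RNA of a cell type and fewer cells of that type cannot be told apart in these whole-tissue samples, and this holds for every class below.

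Most expressed genes differed little between the genotypes. The median log2((Sdw3 + 1)/(N18 + 1)) was -0.03, its quartiles were -0.15 and 0.12, and 55.3% of expressed genes had a negative value. A difference of at least 1 on this scale was reached by 260 genes upwards (1.23% of expressed genes) and 107 genes downwards (0.506%), and 92 of these genes were not called. Those 92 include genes that the authors did not test. Among called genes the median fold was 1.49, and 1217 (51.0%) had a fold under 1.5. Folds of at least 4 were found for 71 genes that rose and 14 that fell. A further 13 called genes were listed at 0 in N18 and 10 at 0 in Sdw3, for which no fold is given. The higher genes together made up 8.51% of the summed FPKM in Sdw3 and 5.61% in N18, and the lower genes 3.80% and 5.41%. These shares leave out AC233788.2_FG002, an untested gene model at 26918 in Sdw3 and listed at 0 in N18, which alone held 3.52% of the Sdw3 sum.

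**Figure D1:**
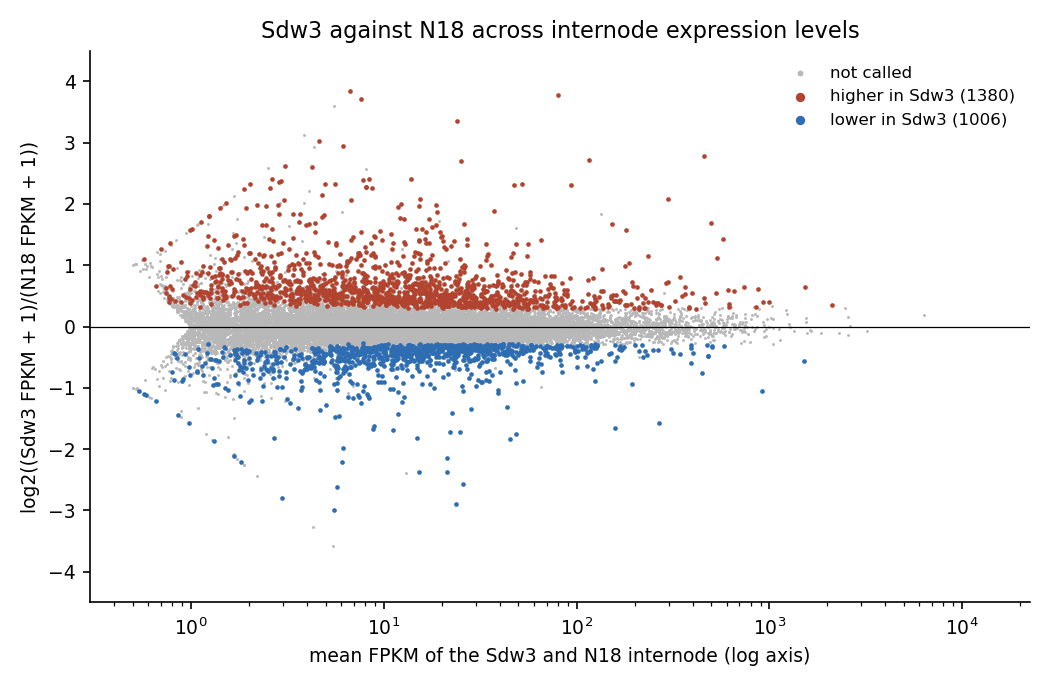
Each point is an expressed gene, with its mean FPKM over Sdw3 and N18 on a log axis (x) and its log2((Sdw3 FPKM + 1)/(N18 FPKM + 1)) (y). Genes called higher (1380) or lower (1006) in the authors' deposited table are coloured; 1 gene lies beyond the y axis limit of 4.5, and most points lie near 0 at every level.

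The share of genes called hardly moved with expression level, whereas the size of the called changes did. Genes with a mean FPKM under 2 were called in 10.2% of cases, those from 2 to 5 in 12.2%, from 5 to 20 in 11.3%, from 20 to 100 in 11.1% and of 100 or more in 11.9%. The median fold of called genes was 2.21 in the lowest of these strata, then 1.77, 1.47 and 1.35, and 1.33 in the highest. The smallest fold with a call was 1.44 in the lowest stratum and 1.23 in the highest, so these medians depend on which folds could be called. Genes with a mean under 1 also entered the lowest stratum only where the genotypes differed, because the higher value had to reach 1. Whether the size of the response itself changes with level was not tested. Higher calls outnumbered lower ones in each stratum, by 252 to 126 at a mean FPKM of 2 to 5 and by 368 to 327 at 20 to 100. In the lowest stratum 60 of the 100 genes past a difference of 1 were not called, against 2 of 15 in the highest. Both counts include genes that the authors did not test, which could not be called, such as AC233788.2_FG002 in the highest stratum. Of the 2095 expressed genes in the lowest stratum, 2049 were tested. A large difference in a weakly expressed gene is thus often without a call, in part for lack of a test. A call in a strongly expressed gene often has a small fold.

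**Figure D2:**
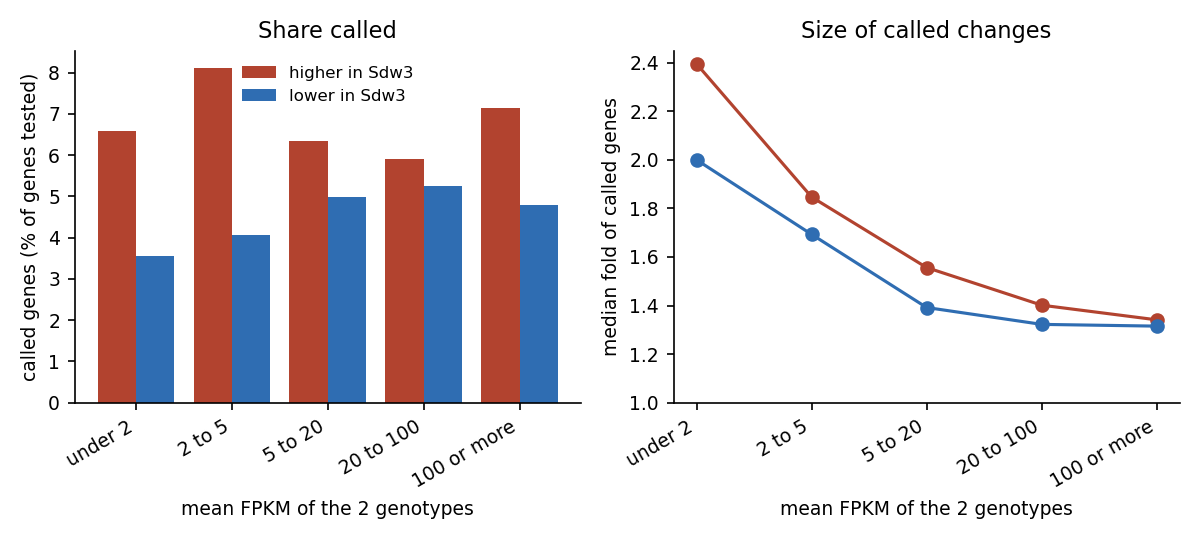
Called genes by mean FPKM of the genotypes: the left plot gives the percent of tested genes called higher (red) or lower (blue) in Sdw3, and the right plot the median fold of the called genes on a linear axis that starts at 1. The shares stay between 3.56% and 8.12%, while the median fold of higher genes falls from 2.40 to 1.34. The median fold of lower genes is smaller in each stratum and ends at 1.32. These medians cover called genes only, and the smallest called fold also falls, from 1.44 in the lowest stratum to 1.23 in the highest.

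Genes were sorted into 83 classes under 9 themes by their names in a reference table. The lists were chosen with earlier results of these data known, so the counts describe the listed genes and do not test a class. Only 1926 expressed genes (9.12%) carried a name, and these were called more often than the rest, in 16.7% of cases (10.4% higher, 6.28% lower), so class counts are read against those shares. The classes held 1089 expressed genes, all tested, of which 135 rose and 80 fell. Lower calls exceeded higher ones under stem growth and form, with 26 lower and 10 higher of 93 genes, and under cell division, with 13 lower and 2 higher of 148. Higher calls made up 20.6% of the 155 metabolism genes (6 were lower), 19.6% of the 179 hormone genes (13 lower) and 17.0% of the 47 transport genes (3 lower). Transcription factors (27 higher and 10 lower of 193), defence and signalling (9 and 3 of 89), protein synthesis (8 and 3 of 138) and cell wall genes (4 and 3 of 53) had smaller shares called higher. Higher calls also exceeded lower ones over all named genes. Unless another value is given, each called gene named below had the smallest adjusted p of the authors' deposited table, 0.00109, which 970 genes share.

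The GRF family was lower in Sdw3 across most of its members. Of 16 listed GRF genes 15 were expressed, and 11 of them fell, 0 rose and 4 were not called; the median difference on the log2(FPKM + 1) scale was -0.46, beside -0.03 over all expressed genes. The steepest falls were those of GRF9 (GRMZM2G124566) and GRF2 (GRMZM2G099862), with differences of -1.48 and -1.15. GRF14 was at 8.11 against 13.7 FPKM, GRF12 at 9.38 against 15.6 and the gene named atGRF2 (GRMZM2G018414) at 4.97 against 8.38, all between 1.6-fold and 1.7-fold lower. Smaller falls were seen for the copy of GRF9 on chromosome 5 (GRMZM5G893117; 3.78 against 5.79, adjusted p = 0.0437 in the authors' deposited table) and for GRF11 (2.92 against 4.39, adjusted p = 0.0366 in the same table). The GRF1 genes GRMZM2G034876 and GRMZM2G178261 were at 9.40 against 13.5 and 24.0 against 30.6, with adjusted p = 0.00363 and 0.0296 in the authors' deposited table. The most abundant GRF genes were thus among those with small folds. GRF6 was at 7.89 against 10.3 and atGRF5 (GRMZM2G105335) at 20.9 against 28.3, with adjusted p = 0.0339 and 0.00581 in the authors' deposited table.

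Differences of the 4 expressed GRF genes without a call lay between -0.03 and 0.27. GRF10 was at 22.8 against 21.7 FPKM, GRF4 at 19.7 against 17.3, atGRF2 (GRMZM2G033612) at 11.8 against 12.1 and GRF5 at 16.6 against 13.7, with adjusted p from 0.412 to 0.924 in the authors' deposited table. GRF5 shares its locus with another gene in the table, and the counting could have split their reads. The remaining GRF gene, GRMZM5G850129, was below 1 in both genotypes. GIF1, a coactivator that binds GRF proteins, fell from 151 in N18 to 92.9 in Sdw3, 1.62-fold. GIF2, whose locus is also shared, was at 23.1 against 24.5 and not called (adjusted p = 0.859 in the authors' deposited table).

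ARGOS genes promote organ growth in plants, and 5 of the 7 expressed ones rose and 0 fell. Cell number regulators (CNR) are a family whose founding maize member limits plant and organ size, and of 5 expressed ones 1 rose and 1 fell. Of 20 listed genes of both families, 12 were expressed, and 6 rose, 1 fell and 5 were not called, with a median difference of 0.72. ZAR1 (GRMZM2G446201; chromosome 10, 119433275 to 119435009) was at 15.1 against 0.219 FPKM (adjusted p = 0.0102 in the authors' deposited table), ARGOS4 at 8.95 against 0.979 and ARGOS9 at 20.3 against 4.33. ZAR3 and ARGOS5 started from a higher N18 level and were at 70.3 against 27.0 and 46.3 against 21.3, 2.60-fold and 2.17-fold higher. ARGOS8, known in maize as a negative regulator of ethylene response, had a difference as large as that of ARGOS9 (5.27 against 0.556) but was not called, at adjusted p = 0.0582 in the authors' deposited table. ARGOS6 was at 6.71 against 6.54 and also not called. Among the CNR genes, CNR6 rose to 55.5 from 43.3 and CNR1 fell to 28.8 from 37.4, with adjusted p = 0.0222 and 0.0319 in the authors' deposited table. CNR13 (35.8 against 30.5), CNR08 (74.5 against 82.0) and CNR5 (8.85 against 8.15) were not called. The other 8 listed genes of both families, ARGOS7 among them, were below 1.

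**Figure D3:**
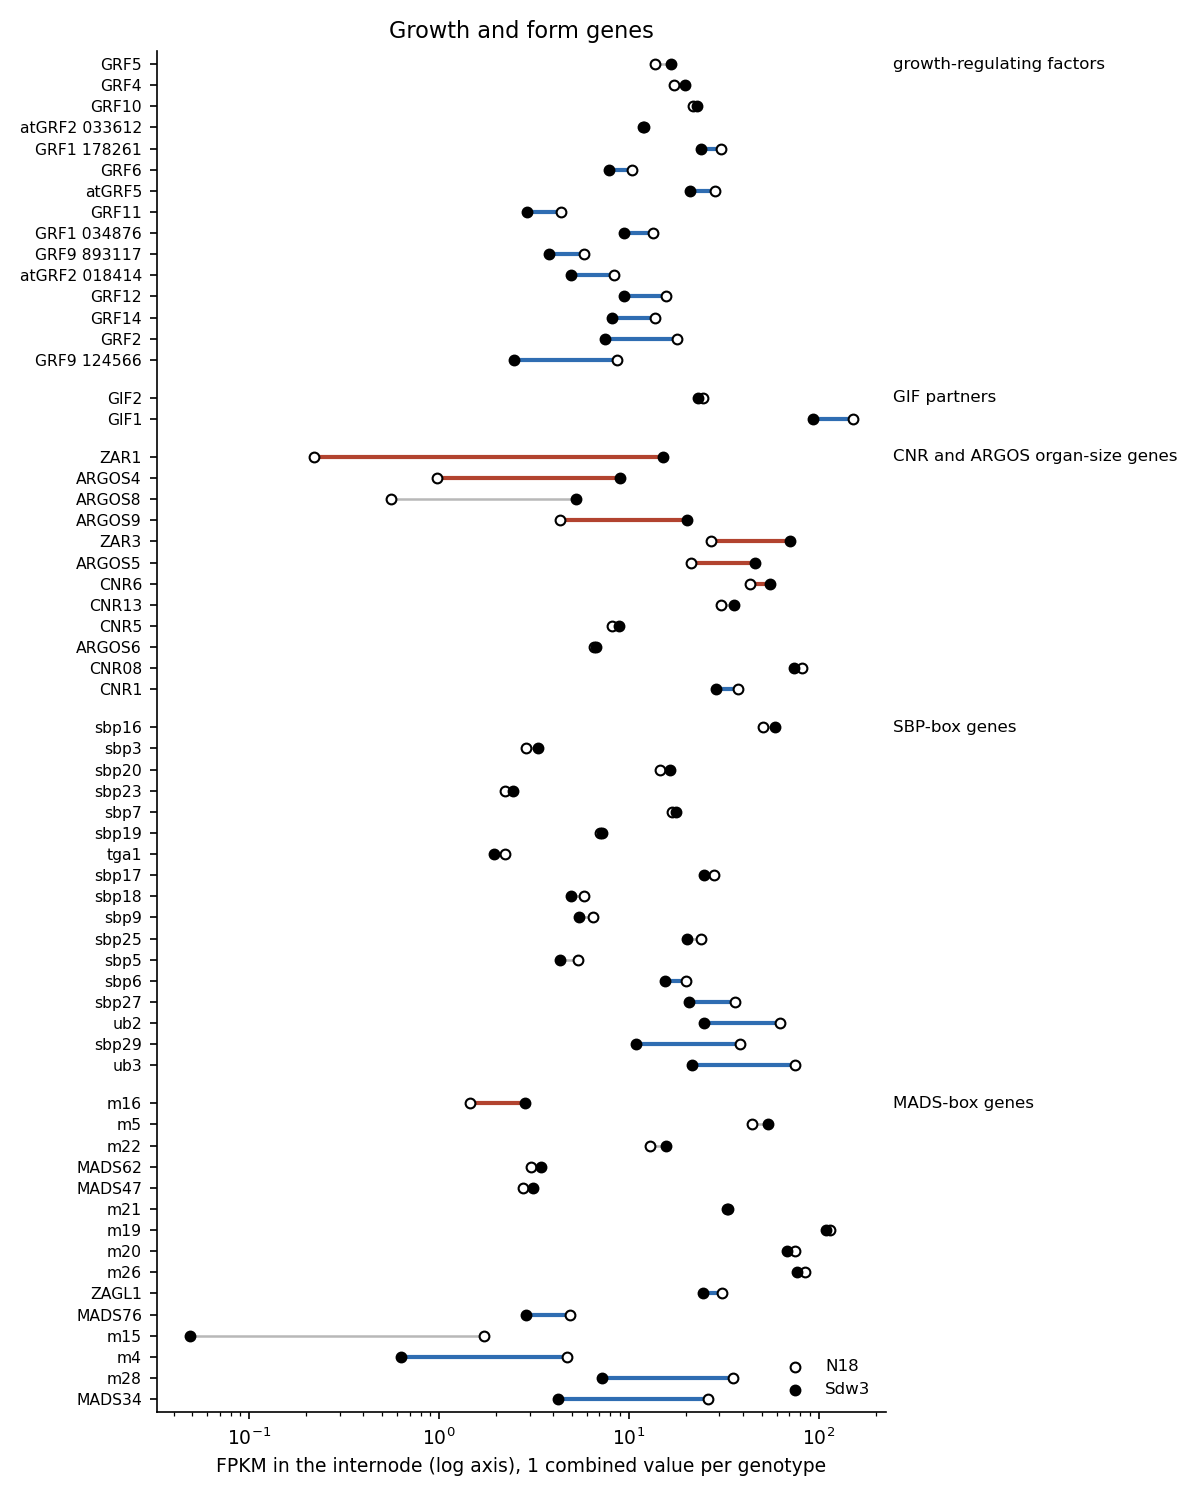
FPKM (log axis) in N18 (open circles) and Sdw3 (filled circles) of every expressed GRF, GIF, CNR and ARGOS, SBP-box and MADS-box gene, with 1 combined value per genotype. The joining line is red or blue for genes called higher or lower in the authors' deposited table and grey for the others; blue lines fill most of the GRF block (11 of 15), and red lines run through the ARGOS genes.

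SBP-box genes, which encode transcription factors that act in phase change and inflorescence branching, gave 0 higher and 5 lower calls among 17 expressed members, with a median difference of -0.19. The falls were concentrated in few genes: ub3, sbp29 and ub2 had differences of -1.75, -1.73 and -1.31, while the 12 uncalled members lay between -0.25 and 0.20. sbp29 (GRMZM2G067624) was at 10.96 against 38.6 FPKM and sbp27 (GRMZM2G097275) at 20.8 against 36.2. sbp6 was at 15.5 against 19.97, with adjusted p = 0.0376 in the authors' deposited table. The most abundant uncalled member, sbp16, was at 58.9 against 51.1 (adjusted p = 0.207 in the authors' deposited table).

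MADS-box genes, many of which act in flowering and flower identity, gave 1 higher and 5 lower calls among 15 expressed of 39 listed, with a median difference of -0.13. Among the lower ones were m28 and m4, members of the clade of APETALA1 and FRUITFULL, which promotes the switch to flowering. m28 was at 7.24 against 35.6 FPKM and m4 at 0.634 against 4.74, while m15 of the same clade was at 0.0487 against 1.73 and not called (adjusted p = 0.189 in the authors' deposited table). MADS34 was at 4.25 against 26.1 and MADS76 at 2.86 against 4.91, with adjusted p = 0.0077 for the latter in the authors' deposited table. ZAGL1 was lower by a small margin (24.7 against 31.0, adjusted p = 0.0465 in the authors' deposited table), and m16 was higher at 2.85 against 1.46 (adjusted p = 0.00958 in that table). The most abundant members, m19 (tunicate1) at 109 against 115, m26 at 76.6 against 84.3 and m20 at 68.4 against 74.8, were not called. With a limit of 5 FPKM in place of 1, only MADS34, m28 and ZAGL1 of the called members were left.

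The FT and TFL1 relatives of the ZCN group, which move or hold back the floral signal, had 1 call in each direction among 5 expressed members. ZCN3 rose to 34.1 from 17.99 (adjusted p = 0.00363 in the authors' deposited table) and ZCN6 fell to 3.29 from 6.52. Of the 10 knotted-type genes, all expressed, lg3 rose by 1.51-fold, knox3 fell by 1.32-fold (adjusted p = 0.018 in the authors' deposited table) and 8 were not called. Over all named genes 10.4% were called higher and 6.28% lower. WOX, YABBY and TCP genes gave 0 calls among 3, 5 and 5 expressed members in the authors' deposited table, where 0, 0 and 1 had an unadjusted p under 0.05.

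Gibberellin genes recognised by name numbered 7, of which 5 were expressed. CYP88A1, the ent-kaurenoic acid oxidase of gibberellin synthesis, was the only one of the 5 called, at 13.7 against 7.03 FPKM. eks1, a kaurene synthase gene of the list below the expression limit, was called higher as well (adjusted p = 0.0413 in the authors' deposited table). Dwarf1, the 3-oxidase that makes active gibberellin, was at 0.578 against 1.5 (adjusted p = 0.0691 in the authors' deposited table). The DELLA genes D8 and d9, whose proteins repress gibberellin response, were at 173 against 206 and 50.4 against 47.1, and an1 was at 4.90 against 6.19, none of them called. ga3ox2 was listed at 0 in both genotypes. The brassinosteroid synthesis genes DWF1 (277 against 279.8), DET2 (17.5 against 16.4) and Dwf4 (1.08 against 0.90) differed by less than 0.13 on the log2(FPKM + 1) scale, and 0 of the 3 reached an unadjusted p under 0.05 in that source, the authors' deposited table.

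The auxin response factors and the Aux/IAA genes, whose proteins bind and repress those factors, showed calls in opposite proportions. Of 16 expressed ARF genes 5 fell and 2 rose (median -0.21), and of 16 expressed Aux/IAA genes 5 rose and 2 fell (median 0.08, or -0.06 with a limit of 5 FPKM). ARF30 fell from 83.1 to 49.1 FPKM, and ARF17 (8.95 against 12.8), ARF12 (39.8 against 52.7) and ARF10 (52.2 against 67.0) had smaller falls, with adjusted p from 0.00201 to 0.0107 in the authors' deposited table. ARF5, at 1.12 against 0.366, and ARF4, at 16.5 against 13.2, were higher, with adjusted p = 0.00581 and 0.0472 in the authors' deposited table. AUX35 rose to 67.0 from 36.5 and AUX6 to 95.9 from 71.1, while AUX1 fell to 17.3 from 25.9. These classes were separated after the values had been seen, and the difference between them was not tested. Of 12 genes of auxin transport and synthesis 2 rose and 0 fell: PIN8 was at 9.55 against 6.93 and Yucca6 at 21.0 against 15.9 (adjusted p = 0.0395 and 0.016 in the authors' deposited table).

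Cytokinin genes gave 3 higher and 1 lower call among 25, at a median of 0.07. These counts are near the shares of all named genes, 10.4% higher and 6.28% lower. The response regulator crr2 was at 24.2 against 10.7 FPKM, and the cytokinin oxidase genes CKX10 and CKX12, whose products degrade cytokinin, went in opposite directions, at 10.5 against 5.43 and 0.456 against 1.51 (adjusted p = 0.00363 for CKX12 in the authors' deposited table). The receptor gene HK1b2 was at 15.2 against 11.03. CCD7, an enzyme of strigolactone synthesis, was at 3.30 against 1.36, the single call among 6 strigolactone genes. Among abscisic acid receptors PYL5 (3.31 against 1.0), PYL7 (26.2 against 13.1) and PYL10 (GRMZM2G063882; 31.0 against 24.2, adjusted p = 0.0307 in the authors' deposited table) rose and 0 of 8 fell. The receptor calls were all upward. The PP2C phosphatases, some of which those receptors inhibit, were divided, with 3 higher and 3 lower of 18. PP2C19 and PP2C20 were at 11.4 against 6.55 and 18.3 against 10.9, and PP2C13 at 0.974 against 2.41. SnRK2.1, a kinase of abscisic acid signalling, fell to 10.9 from 16.6, and the other 6 SnRK2 genes were not called.

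Jasmonate synthesis genes were higher in Sdw3 for 9 of 20 expressed members, with 1 lower and a median difference of 0.23. Some called lipoxygenase and allene oxide synthase genes were already abundant in N18. Of these, lox1 rose to 734 from 337 FPKM, lox10 to 293 from 193 and aos1 to 323 from 144. The lipoxygenase genes lox3, lox6, lox9 and ts1 were not called, with adjusted p from 0.443 to 0.943 in the authors' deposited table. The summed FPKM of the class was 2085 in Sdw3 and 1277 in N18. Several called members have other known roles: lox10 supplies green leaf volatiles, and lox5, at 294 against 225 (adjusted p = 0.0113 in the authors' deposited table), makes 9-oxylipins. Among reductases of the oxophytodienoate type opr5 (14.1 against 2.13) and opr2 (2.14 against 0.745) rose, whereas those known to make jasmonate in maize, opr7 and opr8, were at 26.8 against 27.2 and 29.2 against 30.03 and not called. The allene oxide cyclases aoc1 (25.4 against 20.2) and aoc2 (41.4 against 43.6) were not called either. The 1 lower gene was lox4, at 7.01 against 9.31 (adjusted p = 0.0139 in the authors' deposited table). Among TIFY genes, which include the JAZ repressors that jasmonate removes, 2 of 13 rose and 0 fell, with TIFY4 at 29.3 against 19.7; with a limit of 5 FPKM 1 call was left. MYC2a, a bHLH factor that those repressors bind, was at 40.8 against 29.5.

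Benzoxazinoids are nitrogen-containing defence compounds of young maize tissue, and 6 of the 9 expressed genes of their pathway rose while 0 fell, at a median difference of 0.33. The summed FPKM of the 9 genes was 4172 in Sdw3 and 3257 in N18. bx1, whose product makes the indole that begins the pathway, was at 252 against 267 FPKM and not called. The P450 genes bx2 and BX3, which act next, were at 307 against 240.2 and 945 against 753 (adjusted p = 0.0134 and 0.0472 in the authors' deposited table), and BX4 and BX5 at 643 against 571 and 969.8 against 795 were not called. The dioxygenase gene bx6 was at 437 against 248 and the glucosyltransferase genes bx9 and bx8 at 240.3 against 174 and 221 against 178, with adjusted p = 0.0253 for bx8 in the authors' deposited table. glu1, the glucosidase that releases the toxic compounds, rose most, by 5.11-fold (157 against 30.7). The other called genes of the pathway rose by 1.24-fold to 1.76-fold. Terpene synthase genes gave 3 higher and 0 lower calls of 10, with TPS8 at 3.98 against 1.24, TPS7 at 8.74 against 6.05 and TPS9 (GRMZM2G122231) at 8.13 against 5.69.

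Glutathione transferases, enzymes that conjugate glutathione to reactive compounds, gave 6 higher and 1 lower call among 22 (4 calls in all with a limit of 5 FPKM), with a median difference of 0.19. gst41, among the most abundant called genes of the tissue, was at 1059.6 against 695 FPKM and gst5 at 39.96 against 25.7. GST25 (4.13 against 0.303, adjusted p = 0.0319 in the authors' deposited table) and gst2 (2.69 against 0.703) rose from N18 levels under 1. GST38 fell to 17.8 from 28.7. With a limit of 5 FPKM the class had 4 calls in place of 7.

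Heat shock proteins and chaperones gave 6 higher and 0 lower calls of 19, and heat shock factors 3 and 0 of 8. hsp82 was at 20.2 against 5.31 FPKM, hsp18 at 23.2 against 10.5, hsp18c at 59.2 against 41.7 and hsp1 at 195 against 143. The factor genes Hsf26 and Hsf03 were at 18.9 against 6.60 and 17.8 against 9.47, and HSF2 at 14.3 against 10.5 (adjusted p = 0.0118 in the authors' deposited table). Chaperones of the endoplasmic reticulum did not share these calls: bip1 was at 142 against 145 and bip2 at 87.2 against 91.6, and 0 of 13 protein disulfide isomerase genes were called in the authors' deposited table, where 2 had an unadjusted p under 0.05.

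Plasma membrane aquaporins, the water channels that supply expanding cells, all had positive differences: 3 of 5 expressed members rose and 0 fell. PIP2-4 was at 11.6 against 0.628 FPKM and PIP2-6 at 59.0 against 15.2, while PIP1-1, abundant in both genotypes, was at 429 against 298. The most abundant, PIP2-1, was at 1329 against 1102 and not called. Of 13 aquaporins of other membranes 2 rose and 1 fell, with NIP3-1 at 102 against 70.3, TIP2-1 at 10.9 against 6.14 and TIP4-4 at 35.6 against 49.7 (adjusted p = 0.0051 for TIP4-4 in the authors' deposited table).

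**Figure D4:**
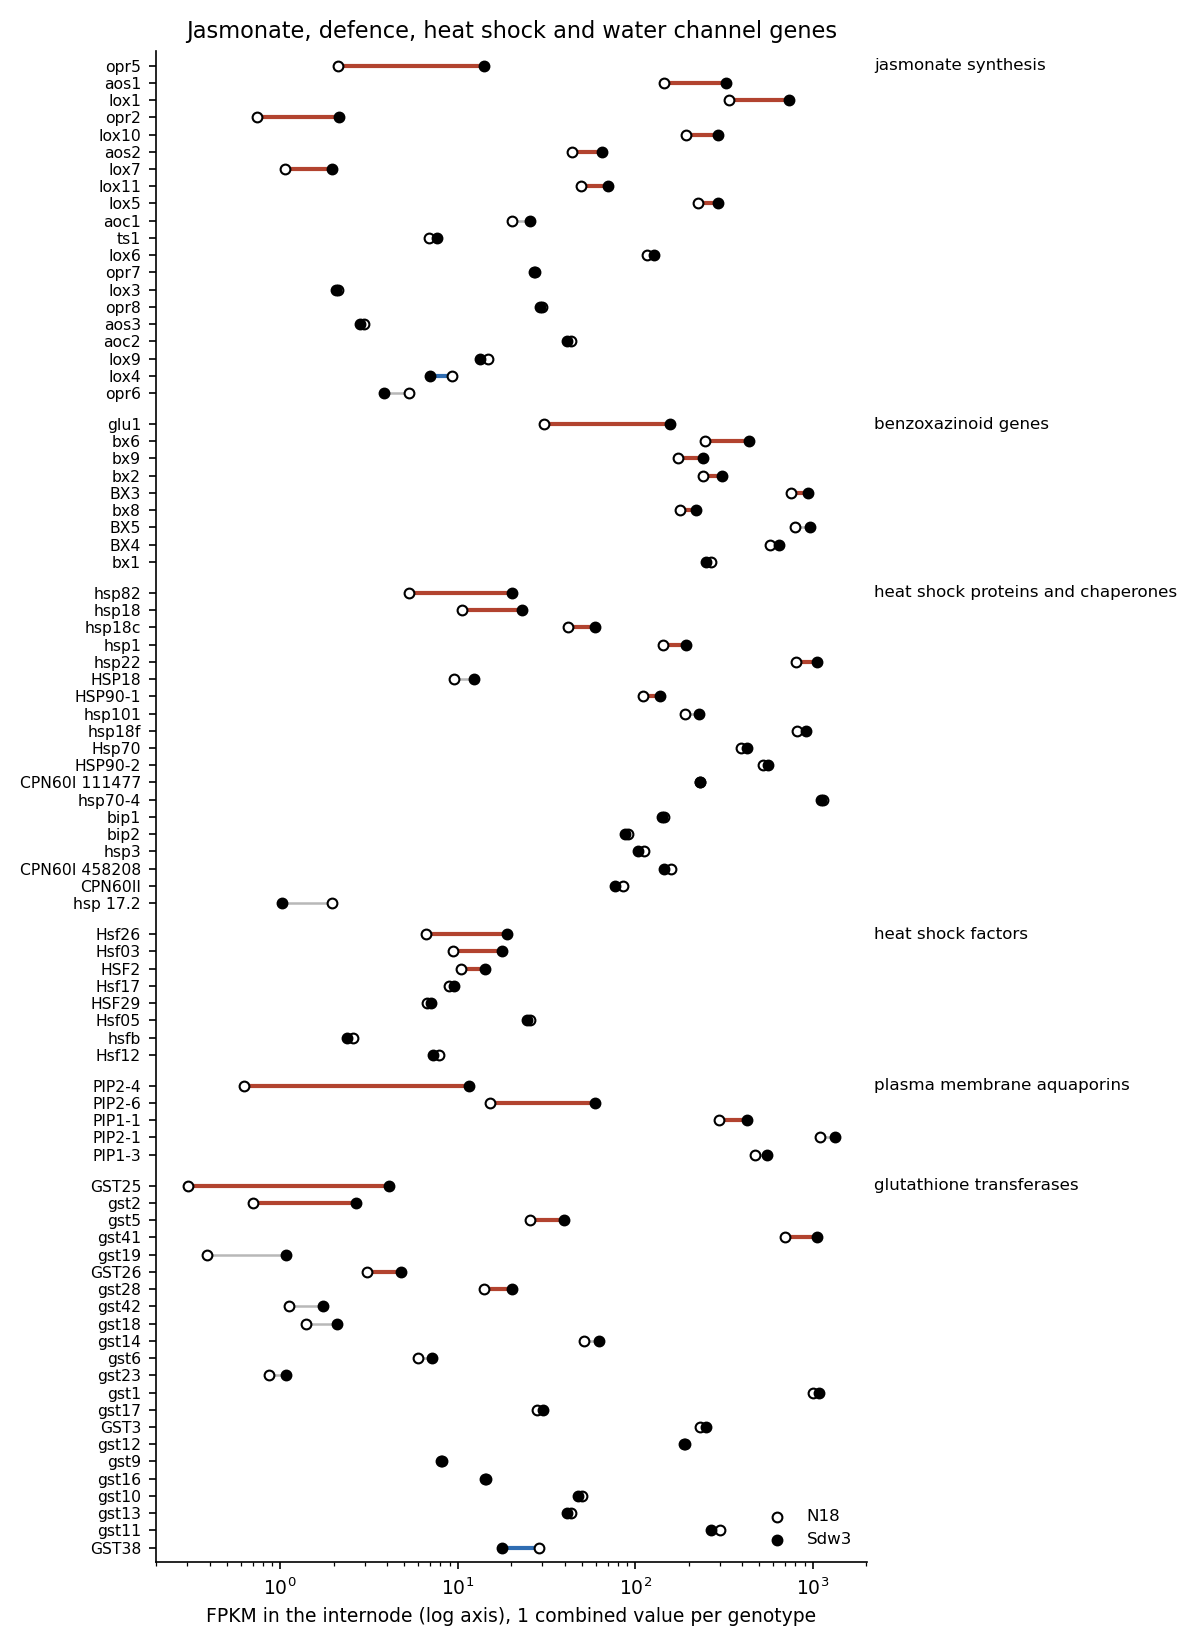
FPKM (log axis) in N18 (open circles) and Sdw3 (filled circles) of every expressed gene of jasmonate and benzoxazinoid synthesis, heat shock proteins and factors, plasma membrane aquaporins and glutathione transferases, with 1 combined value per genotype. Lines are red or blue for genes called higher or lower in the authors' deposited table and grey for the others; red lines occur from below 1 to above 1000 FPKM, and the 2 blue lines are lox4 and GST38.

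In primary metabolism, 4 of 19 genes of glycolysis and fermentation rose and 0 fell. The pyruvate decarboxylase genes pdc3 and pdc2, which begin ethanol fermentation, were at 238 against 119.8 and 2.24 against 1.12 FPKM, and the alcohol dehydrogenase gene adh2 at 86.5 against 56.5. sh1, a sucrose synthase gene, was at 209 against 139, the single call among 17 starch and sucrose genes. The most abundant of the 17, listed as ss2 (GRMZM2G152908), was at 2433 against 2678 and not called. The summed FPKM of that class was 3087 in Sdw3 and 3293 in N18. incw1, a cell wall invertase gene, was at 1.78 against 0.498, in a class without a call at a limit of 5 FPKM. Nitrogen genes gave 4 higher calls and 1 lower of 13, and 3 calls in all without the genes that share a locus, gdh1 and gln3. The asparagine synthetase gene asn3 was at 2.25 against 0.836 and NNR1 at 7.78 against 3.80, while the glutamine synthetase genes gln3 and Gln1-4 went in opposite directions, at 122 against 91.6 (adjusted p = 0.00581 in the authors' deposited table) and 20.2 against 40.4. C4 and photosynthesis genes had 5 higher and 4 lower calls of 29. C4ppdkZm1 was at 24.8 against 5.62 and CP22 at 20.1 against 13.1. The light-harvesting genes cab-m1 and cab48 were lower, at 11.9 against 33.1 and 2.21 against 5.35. The Rubisco small subunit gene rbcS (GRMZM2G098520) was lower as well, at 83.1 against 118. The other rbcS gene, GRMZM2G113033, was not called (adjusted p = 0.786 in the authors' deposited table), nor were Cab-m7 and cab-m9. The called members therefore did not move in 1 direction.

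Genes of the dividing cell differed little. Of the 148, 8.78% were called lower and 1.35% higher, beside 6.28% and 10.4% of all named genes. The share called lower was thus near that of named genes, while higher calls were scarce. Chromatin modifiers gave 0 higher and 7 lower calls of 58, and 47 of the 58 had a negative difference, with a median of -0.13 beside -0.03 over all expressed genes. The DNA methyltransferase genes met2 and dmt101 (GRMZM2G334041) were at 113 against 142 and 12.9 against 17.2 FPKM (adjusted p = 0.0269 and 0.00436 in the authors' deposited table). The histone acetyltransferase gene hac106 was at 22.3 against 28.4 and the SET domain gene sdg118 at 35.8 against 45.4, with adjusted p = 0.0227 and 0.0239 in the authors' deposited table. Each of these falls was under 1.5-fold. Tubulin, actin and kinesin genes gave 1 higher and 4 lower calls of 41, led by Profilin at 29.6 against 50.1 and Actin-7 (GRMZM2G082484) at 76.8 against 55.6. The 20 histone and HMG protein genes gave 0 calls in the authors' deposited table, where 1 had an unadjusted p under 0.05, and their summed FPKM was 8268 against 8389. Cell cycle genes gave 1 higher and 2 lower calls of 29.

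Genes of ribosomes and translation were mostly uncalled, and more of them than the 55.3% of all expressed genes had a negative difference. Of 35 ribosomal protein genes 1 rose and 2 fell, 27 had a negative difference, and the median was -0.09. rpp2a-4, a gene of the ribosomal stalk, stood apart at 134 against 400.3 FPKM, and its relative arpp2a was at 196 against 270.1. Among 14 translation factor genes 13 had a negative difference, with eif3 the only one called, at 93.0 against 115 (adjusted p = 0.0406 in the authors' deposited table). RNA-binding proteins of organelles gave 0 calls of 26 in the authors' deposited table, where 3 had an unadjusted p under 0.05, at a median of -0.11.

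Cell wall genes, which set the extensibility of the growing stem, had 4 higher calls (7.55%) and 3 lower calls (5.66%) among 53, beside 10.4% and 6.28% of all named genes. The expansin genes EXPA5 and expa1 were at 14.5 against 7.57 and 16.9 against 11.6 FPKM and expa2 at 21.1 against 31.3. Expansins, which loosen walls, were therefore called in both directions. Among cellulose synthase and COBRA-like genes CesA-3 was lower, at 44.9 against 60.1 (adjusted p = 0.0139 in the authors' deposited table), and 15 of 16 were not called. The cellulase gene Cel21 was at 4.59 against 2.68 and XYXT1, a xylan glycosyltransferase gene, at 3.57 against 1.94, the only call of its class and below a limit of 5 FPKM. The 8 lignin pathway genes and the 4 laccase genes gave 0 calls in the authors' deposited table, where 1 of each had an unadjusted p under 0.05.

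Among other transcription factor families, bHLH genes had 7 higher and 3 lower calls of 28, with bHLH105 at 8.18 against 3.57 FPKM, bHLH145 at 8.82 against 3.94 and bHLH84 at 2.90 against 6.29. Both directions were thus present in this family. For comparison, 10.4% of all named genes were called higher and 6.28% lower. Homeobox leucine zipper genes had 3 higher and 1 lower of 24. HB115 and HB21 were at 41.4 against 23.7 and 16.8 against 10.4, HB110 fell to 1.54 from 5.01, and the leaf polarity genes rld2, phb1, phb2 and phb3 were not called, at differences from -0.05 to -0.01. AP2/ERF genes gave 3 higher and 0 lower calls of 28, with EREB202 at 42.4 against 20.9. Higher calls in this class and among the homeobox leucine zipper genes were near the 10.4% of all named genes. OBF1, an abundant bZIP gene, was at 696 against 537 (adjusted p = 0.0102 in the authors' deposited table), and bZIP genes gave 4 higher and 1 lower of 31 (3 calls in all with a limit of 5 FPKM). MYB genes had 2 higher and 3 lower calls of 16 (3 calls in all with a limit of 5 FPKM), with MYB121 at 16.8 against 10.6 and Myb3 at 2.85 against 6.08. LOB15 was at 16.7 against 8.97 and NAC1 (GRMZM2G347043) at 16.9 against 9.51; the NAC class had 2 calls of 12, or 1 with a limit of 5 FPKM. The class that joins receptor-like kinases and other receptor genes had 1 call of 11, the meristem size receptor gene fea3, which fell to 26.1 from 43.9.

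**Figure D5:**
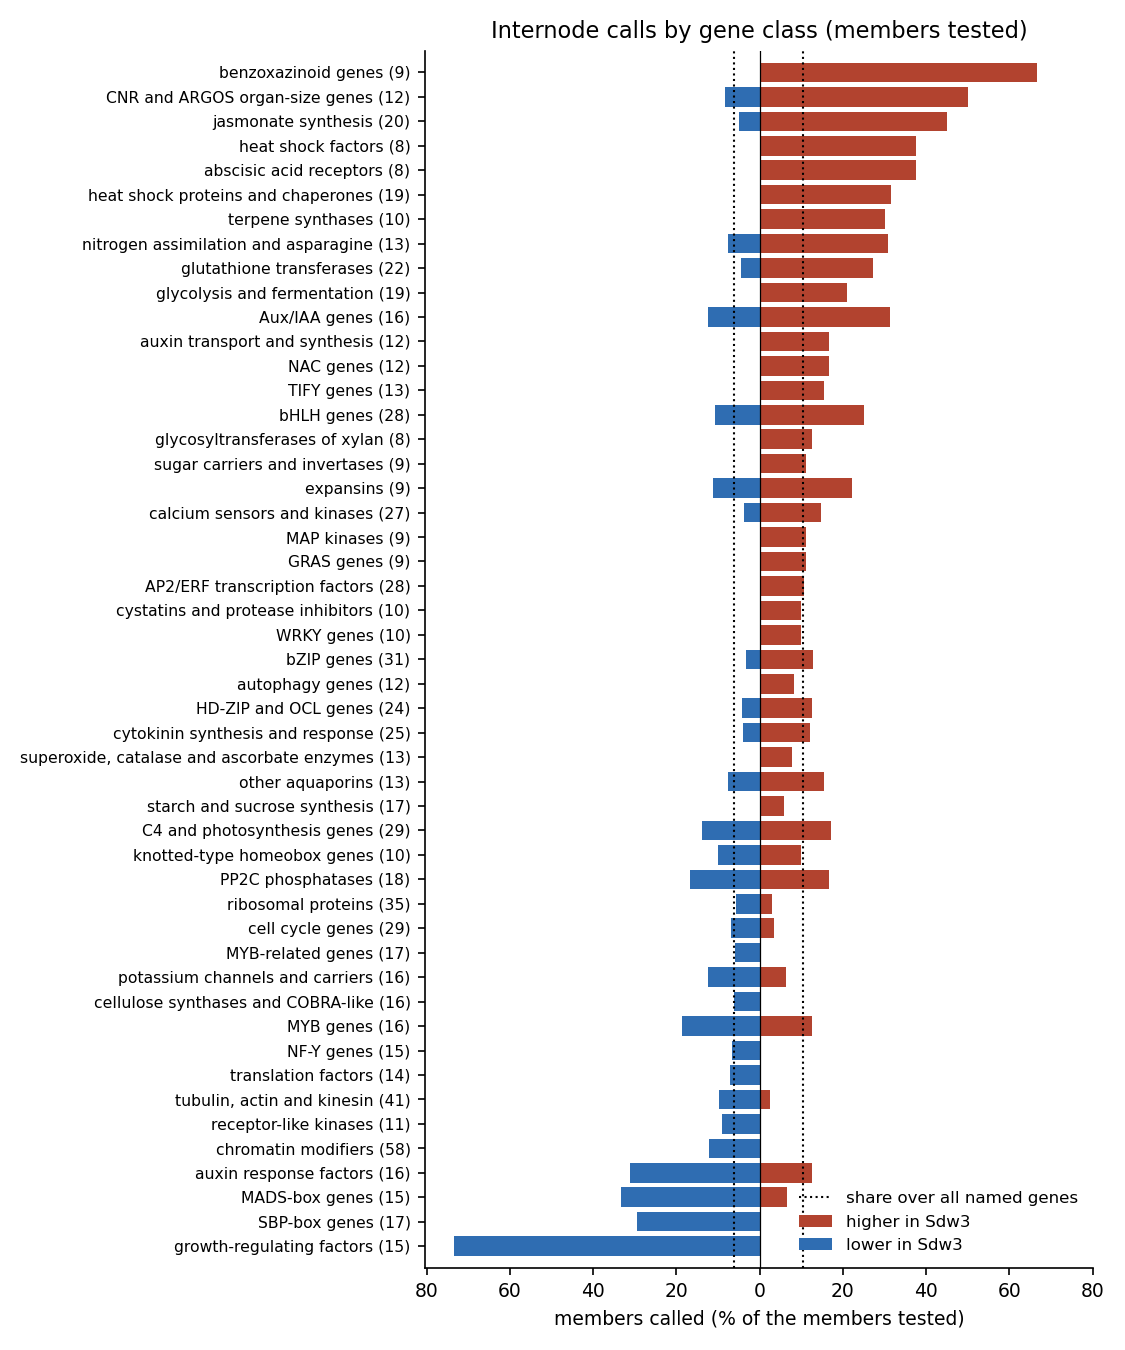
Percent of the tested members of each gene class that were called higher (red, to the right) or lower (blue, to the left) in the authors' deposited table, for classes with at least 8 expressed members and at least 1 call. Dotted lines mark the share over all named genes, 10.4% higher and 6.28% lower, and the numbers of members tested stand in brackets; benzoxazinoid genes lie at the top and GRF genes at the bottom.

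Among called genes with a higher FPKM of at least 5, 4 of the 10 largest increases and 2 of the 10 largest decreases carried a name. Of all 2386 called expressed genes, 321 carried one. GRMZM2G045699 (chromosome 1, 228324145 to 228326276) had the largest increase, at 13.4 in Sdw3 and listed at 0 in N18. The unnamed GRMZM2G162388 and GRMZM2G039443 were abundant as well, at 798 against 116 and 202 against 29.8 FPKM. AGA1 had the second largest increase, at 150.4 against 9.98, and it shares its locus with another gene, so its reads may be divided. The largest decrease was that of GRMZM2G074754, at 0.462 against 10.6. It lies on chromosome 10 beside AAE, an acyl-activating enzyme gene with the tenth largest increase, at 5.98 against 0.142 (adjusted p = 0.0284 in the authors' deposited table). In the files' coordinates, on B73 RefGen_v3 per the submitters' processing notes, AAE spans 148065470 to 148067620 and GRMZM2G074754 148071181 to 148074292, with 3560 bp and 0 listed genes between them. In the ligular region the same opposite difference was listed, AAE at 6.50 against 0.293 and GRMZM2G074754 at 0.575 against 3.73.

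Called genes lay on all 10 chromosomes, in shares from 9.47% of the tested genes on chromosome 2 to 14.3% on chromosome 10. Over 95 windows of 10 Mb with at least 100 tested genes, the median share called was 11.5%. The highest shares were 21.4% (30 of 140 genes) at 170 to 180 Mb of chromosome 3 and 21.0% (59 of 281) at 140 to 150 Mb of chromosome 10, where AAE, GRMZM2G074754 and rpp2a-4 lie. No test of these shares was made, and neighbouring genes are not independent.

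Calls were also counted for expressed genes that did not reach the same limit in the ligular region. Of 1067 such genes, under 1 FPKM in both ligular samples, 185 were called (17.3%), 99 higher and 86 lower, against 11.003% of the remaining expressed genes; this gap was not tested. The genes that follow were taken from all called expressed genes, whatever their ligular level. The 5 most abundant genes called higher included gst41, hsp22 at 1053 against 801 FPKM and RAB15 at 1130.0 against 857, with adjusted p = 0.0084 and 0.00436 for the last pair in the authors' deposited table. The 5 most abundant genes called lower carried no name. GRMZM2G162276 (1228 against 1810.0) and AC187262.4_FG007 (597 against 1232) led them.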

How the data were processed

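RNA of 12 samples in 4 groups of 3 was sequenced; the labels do not say whether replicates were separate plants, so the authors' p-values measure spread that may be technical. The submitters' processing notes name Cufflinks, TopHat2 2.1.0, bcl2fastq and CASAVA 1.8, and the build B73 RefGen_v3. The deposited table gives 1 FPKM per gene and genotype; no header names the unit, which rests on the mention of Cufflinks and on the column layout. The authors' test statistic (a score), p-value and q-value (adjusted p) come from the same table, per the file headers. Benjamini-Hochberg adjustment of the deposited p-values over 21131 tested genes gave the q-values within 5.3e-07. The authors' deposited log2 column holds spreadsheet error entries, so log2 differences were recomputed with a pseudocount of 1. Values per library are not in the table, so depth and intervals cannot be given, and the planned limma fit, library omission and replicate block were not run; the authors' test replaced them.

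Class members and lists were chosen with earlier results of these data known. Identifiers were paired with names through RefSeq's gene table of assembly Zm-B73-REFERENCE-NAM-5.0, newer than the authors' build, which matched 18322 of 39514 identifiers; 517 had several entries and stayed unnamed. Named genes were the 10 largest increases and decreases among named, called genes reaching 5 FPKM, the 5 most abundant called genes in each direction, up to 4 called members per class and direction with the smallest adjusted p, and any member of the gibberellin, organ-size and GRF classes. Other genes named in the text, uncalled members of other classes, unnamed genes and the neighbours on chromosome 10 included, were chosen after their values were seen. Reads of near-identical copies may be divided between them by the authors' counting; 2215 of all genes share a locus with another. Tables were computed in Python 3.11.15 (pandas 2.3.3, numpy 2.4.6, scipy 1.17.1) and plots drawn with matplotlib 3.10.9.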

Additional observations from a re-analysis of the deposited data

How the results depend on the processing

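No paired analysis was possible because the table holds 1 combined value per genotype; for the same reason no library could be left out, and neither fit was run. At an adjusted p threshold of 0.01 the authors' deposited table gave 1433 calls, 505 of them lower. With called genes of a fold under 2 removed at the usual threshold, 462 were left, 336 higher and 126 lower. These 462 keep genes listed at 0 in 1 genotype, which have no fold, and genes below the expression limit. Among expressed called genes with a fold, 322 higher and 116 lower ones reached 2-fold. The median difference of expressed genes was -0.0194 with a pseudocount of 5, -0.0341 with a limit of 5 FPKM, 0 without a limit, -0.0839 with both genotypes scaled to the same FPKM sum and 0.0039 with equal upper quartiles, so its sign depends on the scaling. The share of genes past a 2-fold difference was 2.16% higher and 1.09% lower with a pseudocount of 0.1, 0.431% and 0.142% with a pseudocount of 5, and 0.691% lower with the FPKM sum scaling. The scalings moved all genes by -0.06 and 0.03 on the log2 scale, and 0 called genes changed direction. Most of the first shift came from AC233788.2_FG002: with the sums taken without it, a setting chosen after seeing the data, the shift was -0.00898, the median -0.036 and the shares 1.43% higher and 0.644% lower. Of 392 class medians 17 turned sign and 7 became 0, the latter without a limit, each at most 0.154 in size to begin with. The FPKM sum scaling turned 8 of the 17, and 0 once that gene was left out of the sums. Of 168 class counts of calls 11 moved past 1.5 times: with a limit of 5 FPKM the calls were 3 for MADS-box, 1 for TIFY, 0 for WRKY, 1 for NAC, 3 for MYB, 3 for bZIP, 0 for xylan glycosyltransferase, 1 for potassium carrier, 0 for sugar carrier and 4 for glutathione transferase genes, and without genes that share a locus 3 for nitrogen genes. In weakly expressed genes large differences often went without a call, in part because some of these genes were not tested.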
